A study of Homo sapiens with 6 samples.

Results

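Human chromosome 19 carries long rows of genes for zinc finger proteins, and 249 of them are described here among the 58735 genes of the deposited table. The rule that picks them uses position, biotype and name and no measured value: protein-coding genes on chromosome 19 whose symbol is ZNF followed by a digit. RNA-seq libraries came from MDA-MB-231, an established human triple-negative breast cancer cell line with the genotype given as WT. Cells had been stained with PKH26, a membrane dye that is diluted at each division, and grown for 12 days. The brightest 1% of cells were then sorted as slow-cycling cells (SCC, PKH26hi), and cells of moderate brightness, labelled PKH26lo, as rapid-cycling cells (RCC). Each group had 3 replicate libraries, 6 in all, and both groups carried the dye. No label says that replicates came from separate cultures, so p-values measure only the spread between these libraries, which may be technical, and no unstained or unsorted library was analysed here.

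A C2H2 zinc finger is a short loop of protein held around a zinc ion by a pair of cysteines and a pair of histidines. Such fingers follow one another in a row and together read a stretch of DNA. Many of these proteins also carry a KRAB domain, which binds the corepressor TRIM28. TRIM28 in turn brings the histone methyltransferase SETDB1 and heterochromatin proteins, and KRAB zinc finger proteins are best known for silencing transposable elements. The genes arose by repeated local duplication, so neighbours are often related in sequence.

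The label fitted the genes. The finger pattern of cysteines and histidines was found in the translated coding sequence of 246 of the 249 genes, with a median of 12 fingers and up to 36. A KRAB A box pattern was found in 204. The table itself marked 239 as members of the zf-C2H2 transcription factor family. The genes without a finger match were ZNF738 and the read-through genes ZNF625-ZNF20 and ZNF816-ZNF321P.

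The repeated unit is shown for ZNF780A, ZNF226 and ZNF254, the 3 genes with the smallest p-values in the comparison below. Each line is the coding strand of the first finger that has a fixed histidine spacing and is followed by the exact linker TGEKP (amino acid letters). A unit is 78 bases or 26 codons, from GENCODE 29 transcripts on GRCh38. Earlier fingers with another spacing or linker were passed over if present. Capitals mark the codons of the zinc-binding cysteines and histidines.
ZNF780A: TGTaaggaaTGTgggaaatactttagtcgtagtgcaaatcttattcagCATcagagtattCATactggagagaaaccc
ZNF226: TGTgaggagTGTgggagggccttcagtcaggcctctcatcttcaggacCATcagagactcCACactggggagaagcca
ZNF254: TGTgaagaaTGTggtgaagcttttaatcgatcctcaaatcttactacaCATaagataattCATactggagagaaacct
These units lie in the last exon of each gene, at chromosome 19, 40075866 to 40075943 (minus strand) for ZNF780A, 44176355 to 44176432 (plus strand) for ZNF226 and 24126802 to 24126879 (plus strand) for ZNF254. Those of ZNF780A and ZNF254 were identical at 57 of 78 bases, those of ZNF780A and ZNF226 at 51, and those of ZNF226 and ZNF254 at 50.

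Over whole genes, sharing was measured by exact words, which is not the same measure as identity of aligned units. Among genes tested below, the median share of 50-base words in the exons that also occurred in another gene was 5.32%. It was at least 10% in 55 genes and at least 50% in 6. Exons of 101 tested genes overlapped exons of another gene on either strand. Whether counting used strand is not given in the sources used here. Values of overlapping genes, and of genes with much shared sequence, are for that reason uncertain.

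Library totals ranged from 17655855 to 27831824 counts. SCC replicate 1 stood apart: chi-square over degrees of freedom was 28.5 and 21.4 against SCC replicates 2 and 3, and 3.28 to 4.24 in every other pair within a group. It was the lowest of the 6 libraries in 66 of 177 tested members and the highest in 15 of the 17 with an exon GC content of at least 60%. These shares were not taken over all tested genes, so they describe the library and are not read as traits of the members. The median log2 deviation of this library from the 6-library mean was -0.133 in tested members and 0.0144 in all tested genes. It was 0.311 in other protein-coding genes of chromosome 19. The median exon GC content was 43.8% in tested members and 48.0% in all tested genes. Results are therefore also given without this library and with an offset for GC content. Most markers looked up for the line lay as listed for it, but not all. VIM averaged 795 CPM (counts scaled to library size with TMM factors) in SCC and 776 in RCC. The estrogen receptor gene ESR1 did not exceed 0.696 in any library, and PGR and CDH1 were also too low to be tested. ERBB2 and EPCAM, listed as low or absent, were both tested. ERBB2 averaged 85.8 CPM in SCC and 74.9 in RCC, and EPCAM 4.33 and 5.0. PTPRC, a leukocyte gene, lay between 0.143 and 1.97 CPM, with its highest value in SCC replicate 1.

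Most chromosome 19 ZNF genes were expressed at low levels. Of the 249 genes, 177 (71.1%) had enough counts to be tested, 58 had some counts but too few, and 14 had no count in any library. Among the genes without a count were ZNF99, ZNF728, ZNF737, ZNF582 and ZNF667. By comparison, 83.0% of ZNF genes on other chromosomes were tested. A mean of at least 1 FPKM (the deposited value scaled to gene length and library size) was reached by 100 of the 249 genes, and of at least 10 by 3.

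The 3 highest genes were ZNF146, ZNF787 and ZNF428. ZNF146, which consists almost wholly of fingers and has no KRAB domain, was at 21.4, 26.0 and 26.6 FPKM in SCC replicates 1 to 3 and at 28.6, 30.8 and 28 in RCC replicates 1 to 3. All its SCC libraries lay below all its RCC libraries, but its log2 fold change of -0.24 (standard error 0.086, SCC over RCC) did not pass the test (adjusted p 0.179 by edgeR). ZNF787 was at 22.1, 12.4 and 14.5 FPKM in SCC and 12.8, 14.6 and 13.7 in RCC, with 1 high library, SCC replicate 1. Its log2 fold change was 0.26, and -0.03 without that library. ZNF428, which overlaps SRRM5 on the opposite strand, had overlapping groups and means of 13.3 ± 2.43 FPKM for SCC and 11.5 ± 0.48 for RCC (SD, n = 3). ZNF317 followed at 10.0 ± 0.13 against 9.36 ± 0.32 FPKM and ZNF121 at 7.14 ± 0.78 against 8.67 ± 0.12. None of the 5 passed the test, with adjusted p from 0.130 for ZNF121 to 0.431 for ZNF317 by edgeR.

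**Figure D1:**
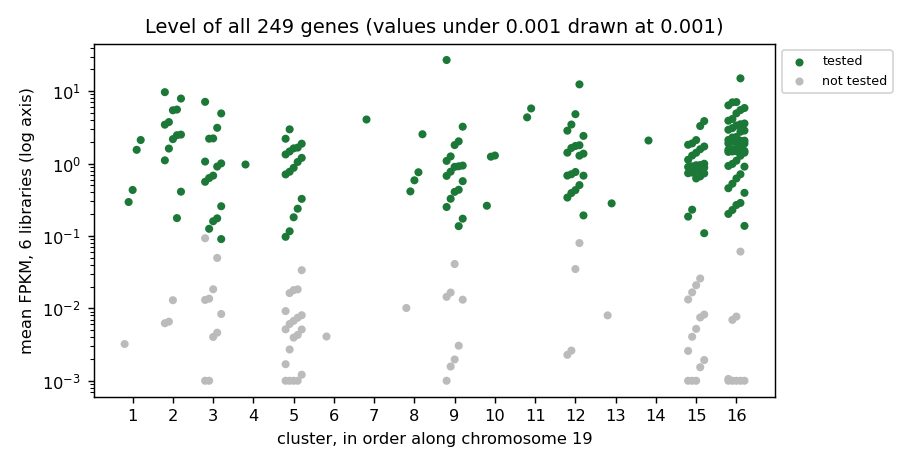
Mean FPKM over 6 libraries (log axis) of all 249 chromosome 19 ZNF genes, each a point, by cluster in order along the chromosome. Tested genes are green and genes with too few counts grey; cluster 5 holds 20 grey points among its 37 genes.

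The main question was how these genes differed between slow-cycling and rapid-cycling cells. Chromosome 19 ZNF genes were shifted to lower levels in SCC by a small amount. Of the 177 tested genes, 121 (68.4%) had a log2 fold change below 0, against 49.5% of all 15881 tested genes, and the median was -0.14 (quartiles -0.34 and 0.05), against 0.00 over all tested genes. Few of them passed the test singly: ZNF780A and ZNF226 fell in SCC. That is 2 of 177 genes (1.13%) called lower at an adjusted p under 0.05 by edgeR's quasi-likelihood test, where 0.378% of all tested genes were called lower and 2.07% in either direction. By the same test 0 of the 177 were called higher, against a background of 1.69%, and DESeq2 also called 0 higher. In bulk RNA, fewer cells that express a gene and less RNA per cell cannot be told apart.

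With the threshold of 0.05 set on the unadjusted p, 36 of the 177 genes were lower (20.3%, against 8.27% of all tested genes) and 8 higher (4.52%, against 11.4%). In 45 genes every SCC library lay below every RCC library (25.4%, against a background of 13.4%), and in 10 every SCC library lay above (5.65%, against 14.4%). DESeq2 called 12 of the genes lower (6.78%, against 1.15% of all genes), with ZNF780A and ZNF226 among them. With the GC offset 6 were called lower (3.39%, against 1.47%): ZNF780A, ZNF226, ZNF234, ZNF254, ZNF302 and ZNF587. Leaving out a library moved the calls of members and of all genes together. Without SCC replicate 1 edgeR called 9 members lower (5.08%, against 2.1% of all genes in that fit). Leaving out SCC replicate 2 gave 13 lower (7.34%, against 1.59%) and 2 higher (1.13%, against 3.57%). There was 1 lower call, ZNF780A, without SCC replicate 3 (0.565%, against 0.116%) and also without RCC replicate 2 (0.565%, against 0.0851%). Without RCC replicate 1 or RCC replicate 3 there were 0, against 0.0491% and 0.0673% of all genes. On the unadjusted p, members were lower in 38 genes (21.5%, against 9.14% of all genes) without SCC replicate 1, 46 (26.0%, against 11.9%) without SCC replicate 2 and 32 (18.1%, against 7.36%) without SCC replicate 3. The counts were 29 (16.4%, against 5.51%) without RCC replicate 1, 33 (18.6%, against 5.3%) without RCC replicate 2 and 29 (16.4%, against 5.6%) without RCC replicate 3.

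Summed over the 249 genes, reads took a smaller share of the library in every SCC sample. The share was 0.168% (95% Wilson interval 0.166 to 0.169), 0.172% (0.170 to 0.174) and 0.168% (0.166 to 0.170) in SCC replicates 1 to 3. In RCC replicates 1 to 3 it was 0.186% (0.185 to 0.188), 0.182% (0.181 to 0.184) and 0.186% (0.184 to 0.188). The groups did not overlap, and the means were 0.169% ± 0.0023 and 0.185% ± 0.0023 (SD, n = 3). The intervals cover counting error only.

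The median deviation was negative in each SCC library, and smallest in SCC replicate 2. When each gene was centred on its 6-library mean, the median over the 177 genes was -0.13, -0.03 and -0.08 in SCC replicates 1 to 3, and 0.08, 0.06 and 0.07 in RCC replicates 1 to 3. Centring ties the 6 values of a gene together, so low SCC values raise the RCC values. The median log2 fold change was -0.11 when SCC replicate 1 was left out, and the GC offset also gave -0.11. With both, an alternative chosen after seeing the data, it was -0.10.

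**Figure D2:**
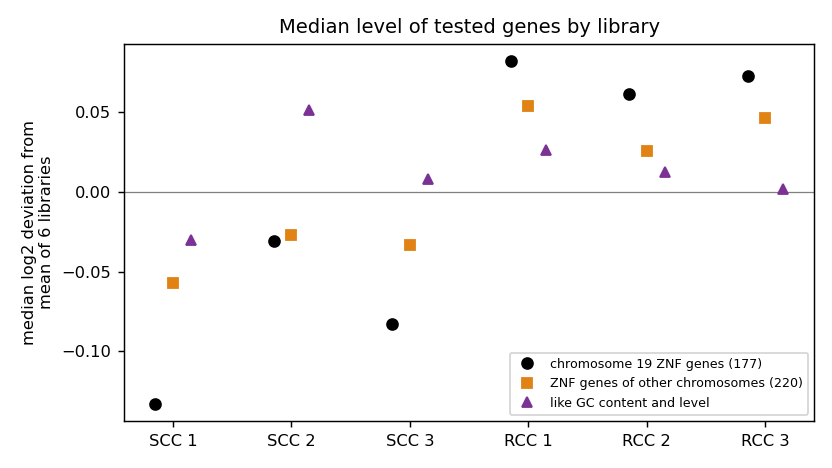
Median log2 deviation from the mean of the 6 libraries (vertical axis) in each library for 177 tested chromosome 19 ZNF genes, 220 tested ZNF genes of other chromosomes, and the genes of like GC content and level. Black points lie between -0.13 and -0.03 in SCC and between 0.06 and 0.08 in RCC, whereas the triangles of like genes lie between -0.03 and 0.05 with no such division.

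Genes of like GC content and level had a median nearer to 0. Each ZNF gene was set beside the other protein-coding genes in its own bin, out of 10 bins of exon GC content and 5 of level, with 159 to 351 genes in a bin. The median of these like-gene values over the 177 genes was -0.04, and 125 of the 177 (70.6%) lay below the median of their own bin. Over all 177 genes, above and below, the median difference from the bin was -0.14. In the same bins, averaged over the ZNF genes, 7.28% of the other genes had an unadjusted p under 0.05 on the lower side and 10.1% on the higher side, and 11.5% had all SCC libraries below all RCC libraries. Library by library, the ZNF genes differed from like genes by -0.07, -0.06 and -0.10 in SCC and by 0.08, 0.06 and 0.08 in RCC. These are descriptions and carry no test.

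ZNF genes elsewhere in the genome also lay to the lower side. Of 220 tested genes, 60.9% had a log2 fold change below 0, with a median of -0.08 (-0.06 with the GC offset). At an unadjusted p under 0.05, 17.7% were lower, against 20.3% of the chromosome 19 ZNF genes. All SCC libraries lay below all RCC libraries in 24.5%, against 25.4%. By edgeR 4 of the 220 were called lower (1.82%, against 1.13%) and 1 higher (0.455%). Lower calls and groups without overlap were thus not particular to chromosome 19. The difference between the 220 genes and the chromosome 19 ZNF genes was not tested. Other protein-coding genes of chromosome 19 lay on the opposite side, with a median of 0.18 over 713 tested genes, which have a median GC content of 59.9%. The GC offset gave 0.01, and leaving out SCC replicate 1 gave 0.06.

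Within chromosome 19 ZNF genes, GC content and fold change moved together. Across the 177 genes, which are not independent replicates and share the same libraries, Pearson's r between them was 0.557 and Spearman's rho 0.509. All 17 tested genes with a GC content of at least 60% had a log2 fold change above 0, with a median of 0.36. With the GC offset this median was 0.10, and it was also 0.10 when SCC replicate 1 was left out. At the other end, the median was -0.30 among the 59 genes with the lowest GC content (-0.20 with the offset).

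**Figure D3:**
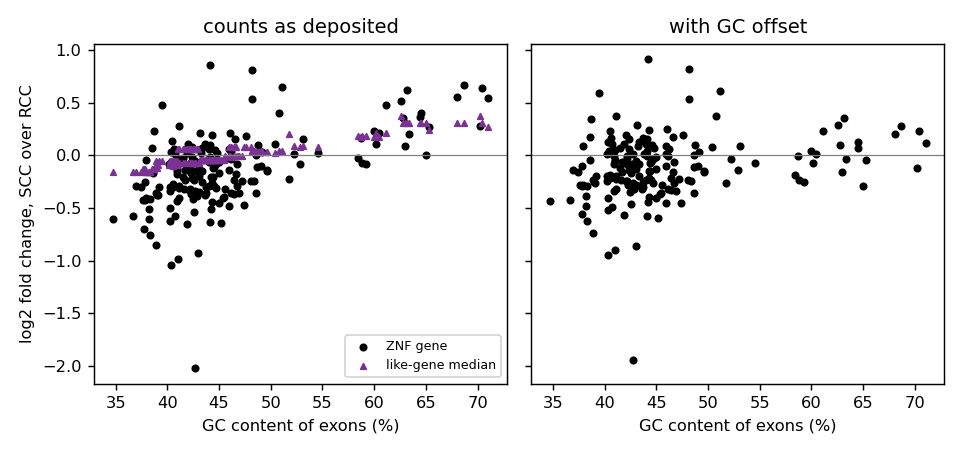
Log2 fold change of SCC over RCC (vertical axis) against exon GC content in percent for the 177 tested genes, with counts as deposited (left) and with the GC offset (right). Black points are ZNF genes and triangles the median of like genes; genes at 60% or more lie above 0 on the left, with a median of 0.36, and around a median of 0.10 on the right.

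ZNF780A (ENSG00000197782, chromosome 19, 40069152 to 40090938), a KRAB zinc finger gene with 17 fingers, had the smallest p-value. It was at 7.34, 7.98 and 7.78 CPM in SCC replicates 1 to 3 and at 13.1, 11.1 and 14.7 in RCC replicates 1 to 3. The SCC libraries were close to each other and all below the lowest RCC library. Expressed as a log2 fold change this was -0.75 (standard error 0.13, adjusted p 0.015 by edgeR), and it was -0.62 (adjusted p 0.010) with the GC offset. It was called in 13 of 18 alternatives, with adjusted p from 4.7e-05 to 0.338, and not without RCC replicate 1 (0.101) or RCC replicate 3 (0.090). Its exons overlap AC005614.1 on the opposite strand and AC005614.2 on the same strand. ZNF780B, its neighbour (chosen after its values were seen), was lower in every SCC library too, at 10.0 ± 1.32 against 13.0 ± 0.43 CPM (SD, n = 3), without passing the test (adjusted p 0.142 by edgeR).

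ZNF226 (ENSG00000167380, chromosome 19, 44165073 to 44178381), a KRAB gene whose exons overlap no other gene, was at 8.23, 10.5 and 11.2 CPM in SCC and at 14.4, 15.1 and 15.2 in RCC. The lowest library was SCC replicate 1, and the groups did not overlap. Its log2 fold change was -0.58 (standard error 0.13, adjusted p 0.049 by edgeR), and -0.49 with the GC offset (adjusted p 0.014). It was called in 10 of 18 alternatives, with adjusted p from 0.0023 to 0.388. It was not called without SCC replicate 3 (0.060) or without RCC replicate 1, 2 or 3 (0.182, 0.185 and 0.190).

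RefSeq promoter windows (GRCh38.p14) were also searched for the members. In windows of 300 bases around the start, 217 of the 249 genes could be matched by symbol to the RefSeq promoter table. The 160 tested ones had a median of 20.5 CpG and a GC content of 61.0%, against 14 and 58.7% over all 35116 promoters. The latter were not filtered by expression. All 217 matched members had medians of 20 CpG and 59.7%, and the untested ones a median of 17 CpG. The series title names AP-1, a factor known to bind the letters TGANTCA, a motif that is its own reverse complement. These letters were in 14 of the 217 windows (6.45%) and in 7.71% of all promoters. Tested members with them had a median log2 fold change of -0.12 (11 genes), and those without -0.15.

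Among genes at a mean of at least 1 CPM, the lowest fold changes beside those of the called genes did not pass the test by edgeR. Several of them passed by DESeq2. ZNF112, which lies in the same cluster as ZNF226 and overlaps AC245748.1 on the same strand, was at 1.04, 2.10 and 2.23 CPM in SCC and 3.26, 3.44 and 3.75 in RCC. Its groups did not overlap, and its log2 fold change of -0.98 had an adjusted p of 0.0995 by edgeR (0.037 by DESeq2). ZNF441 was at 3.12, 3.78 and 4.13 CPM against 6.78, 5.69 and 5.26 (log2 fold change -0.70, adjusted p 0.075 by edgeR, 0.037 by DESeq2). ZNF234, next to ZNF226, was at 4.67, 6.19 and 6.07 CPM against 8.17, 9.84 and 8.06 (log2 fold change -0.63, adjusted p 0.072 by edgeR, 0.0255 by DESeq2). In both, the SCC libraries all lay below the RCC libraries. ZNF675, which encodes an inhibitor of TRAF6 signalling, was at 4.64, 4.35 and 5.08 CPM against 7.35, 5.50 and 8.84. Its log2 fold change was -0.62 (adjusted p 0.116 by edgeR, 0.059 by DESeq2).

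Genes with the smallest p of their cluster lay in the same direction. ZNF254, whose exons overlap AC092279.1 on the same strand, was at 8.31, 12.0 and 9.96 CPM in SCC and 14.9, 16.5 and 14.4 in RCC. Its log2 fold change of -0.61 missed the threshold by edgeR (adjusted p 0.057), but not with the GC offset (0.026) or by DESeq2 (0.0070). It was called in 8 of 18 alternatives, with adjusted p from 0.0010 to 0.428. ZNF529, which overlaps ZNF382 on the opposite strand, had a mean CPM of 8.52 ± 1.44 for SCC and 12.1 ± 0.30 for RCC (SD, n = 3). Its adjusted p was 0.089 by edgeR and 0.042 by DESeq2. For ZNF587 the means were 18.7 ± 2.01 and 24.6 ± 0.64 CPM (SD, n = 3, adjusted p 0.079 by edgeR, 0.035 by DESeq2). ZNF587 shares 35.8% of its 50-base exon words with other genes and overlaps ZNF814, so its counts are uncertain. ZNF841 had a log2 fold change of -0.35 and ZNF121 of -0.28, neither past the threshold (adjusted p 0.193 and 0.130 by edgeR, 0.162 and 0.096 by DESeq2).

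**Figure D4:**
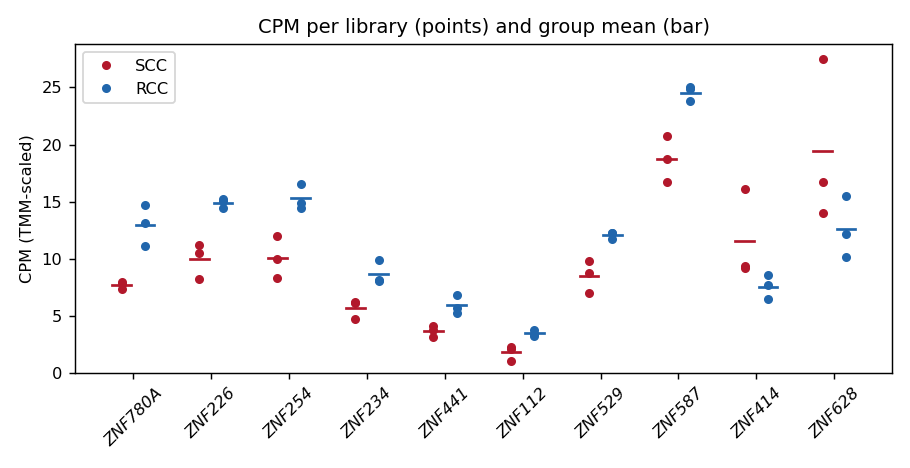
CPM (TMM-scaled, axis from 0) of 10 named genes in each library as points, with group means as bars, SCC red and RCC blue. From ZNF780A to ZNF587 every SCC point lies below every RCC point of its gene, while the SCC points of ZNF414 and ZNF628 include 1 high library, SCC replicate 1.

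The highest fold changes among genes at a mean of at least 1 CPM were those of ZNF358 (0.67), ZNF554 (0.65), ZNF628 (0.64), ZNF414 (0.62), ZNF296 (0.55) and ZNF865 (0.54). None passed the test, with adjusted p from 0.144 to 0.245 by edgeR. ZNF628 was at 27.5, 14.01 and 16.7 CPM in SCC and 10.2, 12.2 and 15.5 in RCC, so that its groups overlapped and its highest library was SCC replicate 1. ZNF414 was at 16.1, 9.20 and 9.34 against 7.69, 8.55 and 6.43 CPM, without overlap. Apart from ZNF554, these genes had a GC content of 63.1% to 71.1% and no KRAB match. With the GC offset the log2 fold change was 0.35 for ZNF414, 0.28 for ZNF358, 0.23 for ZNF628, 0.20 for ZNF296 and 0.12 for ZNF865. ZNF554 stayed at 0.61, from means near 1 CPM.

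Along the chromosome the genes fell into 16 clusters, separated wherever neighbouring starts were over 1 Mb apart, and 7 clusters held at least 5 tested genes. The median log2 fold change was below 0 in all 7, which hold 228 of the 249 genes. It was lowest in cluster 5 (chromosome 19, 19668796 to 24129961), a cluster of 37 genes of which 17 were tested. There 16 of 17 genes had a log2 fold change below 0, the exception being ZNF14 (0.13), and the median was -0.42. At an unadjusted p under 0.05, 10 of the 17 were lower (8.27% of all tested genes were), and 12 had all SCC libraries below all RCC libraries (against 13.4%). By edgeR 0 were called, the smallest adjusted p being 0.057, where 0.378% of all tested genes were called lower. DESeq2 called 3, against a background of 1.15%. Tested genes of this cluster had a median GC content of 38.3%, and the median was -0.29 with the GC offset and -0.38 when SCC replicate 1 was left out. Relative to genes of like GC content and level it was -0.30.

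Cluster 5 contains ZNF91, known as a repressor of SVA retrotransposons in primates, which was chosen after its values were seen. Its mean was 6.91 ± 0.52 CPM for SCC and 9.20 ± 0.66 for RCC (SD, n = 3), a log2 fold change of -0.42 with an adjusted p of 0.127 by edgeR. ZNF100 averaged 6.42 ± 1.03 against 9.50 ± 0.19 CPM, ZNF708 5.09 ± 1.21 against 7.67 ± 0.88, and ZNF714 20.8 ± 1.59 against 27.1 ± 2.95. These 3, also chosen after their values were seen, had groups that did not overlap. Their adjusted p was 0.075, 0.124 and 0.098 by edgeR, and 0.033, 0.066 and 0.049 by DESeq2. The cluster was also the least expressed of the large ones: the median over all 37 genes was 0.018 FPKM, against 1.49 in cluster 16 (chromosome 19, 55476332 to 58481230), where 50 of 59 genes were tested.

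**Figure D5:**
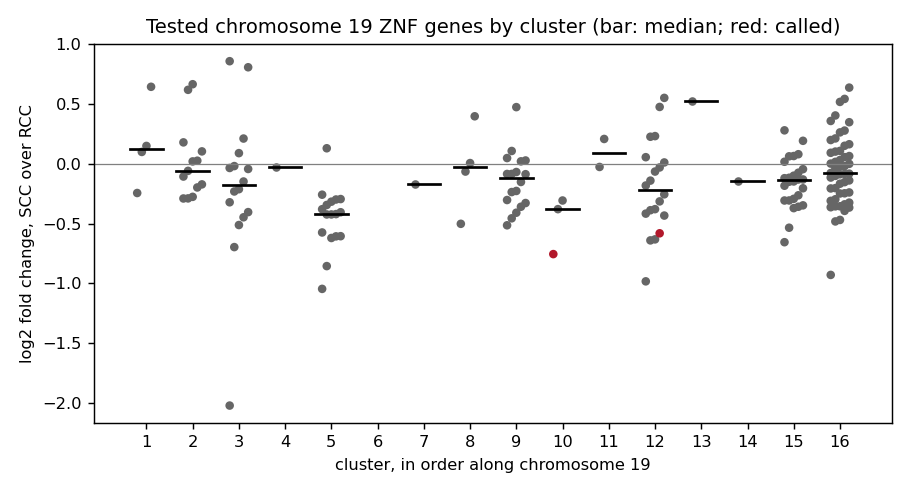
Log2 fold change of SCC over RCC (vertical axis) of the 177 tested genes by cluster in order along chromosome 19; bars are medians and red points the 2 called genes. The bar of cluster 5 lies at -0.42 with 16 of 17 points below 0, and that of cluster 16 at -0.08; the lowest point, in cluster 3, is ZNF20.

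The other large clusters had medians nearer to 0. Medians were -0.22 in cluster 12 (20 tested genes, 43525497 to 45076588), -0.18 in cluster 3 (16 genes, 11483427 to 12640098) and -0.14 in cluster 15 (26 genes, 51571298 to 53580269). They were -0.12 in cluster 9 (18 genes, 36182060 to 37817300), -0.08 in cluster 16 (50 genes) and -0.06 in cluster 2 (13 genes, 7069444 to 9793180). With the GC offset the median of cluster 2 was 0.02 and those of the other 5 clusters in this paragraph lay between -0.15 and -0.06. In cluster 12, the 12 adjacent tested genes from ZNF230 to ZNF180 (44002948 to 44500524) all had log2 fold changes below 0, from -0.98 to -0.14. That stretch was picked out after its values were seen. In 6 of its genes all SCC libraries lay below all RCC libraries, against 13.4% of all tested genes and 25.4% of the tested members. The lowest fitted value of any member, -2.02 for ZNF20 in cluster 3, rests on 5, 1 and 4 counts in SCC and 16, 11 and 11 in RCC. ZNF20 shares 58.1% of its exon words with other genes.

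By protein, the median was lower for genes with a KRAB A box pattern than for those without it. A fixed pattern can miss KRAB domains, so genes without a match, such as ZNF43 and ZNF714, are not shown to lack the domain. Of 142 tested genes with the pattern 109 were below 0, with a median of -0.19, and of 35 without it 12 were below 0, with a median of 0.20. The latter had a median GC content of 60%, against 43.3%. With the GC offset the medians were -0.14 and -0.04. When SCC replicate 1 was left out they were -0.14 and -0.03, so the direction for genes without the pattern turned. Among genes under 60% GC, the median was -0.19 with the pattern (142 genes) and -0.15 without it (18 genes). Medians by finger number were alike, -0.13 for genes with up to 12 fingers and -0.15 for those with more. By level, they were -0.20, -0.14 and -0.12 in the lowest, middle and highest of 3 equal groups, and -0.14 for genes with under 10% as well as for those with at least 10% shared words. None of these differences was tested.

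The partners of KRAB proteins showed no called change. Of 18 genes listed for KRAB repression and for keeping its targets silent, 0 were called by edgeR or DESeq2. Over all tested genes edgeR called 2.07%, so 0 calls among 18 genes is near that share and shows no lack of change. By edgeR 0 of the 18 had an unadjusted p under 0.05, where 8.27% of all tested genes were lower and 11.4% higher. Their median log2 fold change was -0.05, with 13 of 18 below 0, against 49.5% of all tested genes. With the GC offset the direction of several turned. FAM208A went from -0.04 to 0.09 and HDAC2 from -0.10 to 0.05, whereas CBX1 was at -0.08 and stayed below 0 at -0.10. The 13 are for that reason not read as a lean of the list. TRIM28 (chromosome 19, 58544091 to 58550722) was at 749, 561 and 585 CPM in SCC and 572, 546 and 598 in RCC. Its log2 fold change of 0.14 (standard error 0.10, adjusted p 0.442 by edgeR) was -0.08 with the GC offset. SETDB1 was at 24.9, 26.2 and 23.4 CPM against 30.0, 24.8 and 29, with overlapping groups and a log2 fold change of -0.17 (standard error 0.099, adjusted p 0.357 by edgeR). ZNF274, a member chosen here because it is known to bind the 3' ends of zinc finger genes with these partners, had means of 29.1 ± 1.06 CPM for SCC and 30.9 ± 3.09 for RCC (SD, n = 3, adjusted p 0.627 by edgeR).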

How the data were processed

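RNA-seq libraries of 3 SCC and 3 RCC samples were compared. The authors deposited whole-number counts and FPKM values per gene. HISAT2 2.0.5 and featureCounts 1.5.0-p3 are named in the submitters' processing notes, whereas the genome build, read filters and use of strand are not given in the sources used here. All 58735 rows matched GENCODE 29 (GRCh38) by ID, start, end and strand, and 58676 received an exon GC content from its transcripts. Columns of other samples numbered 0.

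Counts were filtered with filterByExpr (minimum count 10), scaled by TMM and fitted on group with glmQLFit in edgeR 4.0.16 (R 4.3.3). Two-sided p-values were adjusted by Benjamini-Hochberg over 15881 genes, and an adjusted p under 0.05 was called. The standard error of a log2 fold change was taken from its F statistic. The step was tested on simulated data. These held neither an outlying library nor a GC trend, so the test does not show how the calls behave under either. CPM uses TMM-scaled totals. Alternatives were DESeq2 1.42.0, other scalings and filters, each library left out, a replicate block, a GC offset (lowess per library, span 0.3), limma 3.58.1 on log2(FPKM + 1) and log2(FPKM + 0.1), and subsets of members. The KRAB pattern was widened, after a first look, to admit glutamate-leucine as well as glutamate-tryptophan at its end. No protein table was used, so coding sequences of GENCODE transcripts were translated.

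Members and lists were chosen with earlier results of these data known. Members were named if called, if among the 6 highest or 6 lowest fold changes at a mean of at least 1 CPM, if among the 5 highest by FPKM, or if of smallest p in a cluster of at least 5 tested genes. TRIM28 and SETDB1 were named beside them, and others were chosen after their values were seen.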

Additional observations from a re-analysis of the deposited data

How the results depend on the processing

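The direction of the shift held in every alternative run: the median log2 fold change of chromosome 19 ZNF genes was below 0 in 20 of 20, from -0.20 to -0.02, and so was the difference from like genes, from -0.16 to -0.02. The share of members below 0 ranged from 65.5% to 72.3% over 18 fits. Calls of single members depended on the fit, and the cause was not tested. Depth limits the low members: a gene left untested had at most 42 counts over the 6 libraries.

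Against 2 members called lower, DESeq2 gave 12, testing every gene with at least 1 count 14, at least 10 counts in every library 1, the GC offset 6, the GC offset with the block 8, the GC offset without SCC replicate 1 gave 5, and members overlapping no other gene 1. All 3 FPKM settings gave 0. At an unadjusted p under 0.05 by limma, 23 of 101 tested members were lower with log2(FPKM + 1) (22.8%, against 8.52% of all genes). The counts were 24 of 101 with log2(FPKM + 0.1) (23.8%, against 8.53%) and 23 of 235 with log2(FPKM + 1) and no filter (9.79%, against 3.97%). Against 0 members called higher, testing every gene with a count gave 5. Leaving out 1 library at a time gave 0 (without RCC replicate 1 or 3) to 13 lower members (without SCC replicate 2), and 0 to 2 higher ones.

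The median of -0.14 was -0.0961 with log2(FPKM + 1), -0.0241 with log2(FPKM + 1) and no filter, and -0.0923 for members that overlap no other gene. Without 1 library it ranged from -0.200 (without SCC replicate 2) to -0.111 (without SCC replicate 1). The difference from like genes, -0.139, was -0.106 and -0.0192 in the same FPKM settings, -0.120 with the GC offset without SCC replicate 1, and -0.164 to -0.123 without 1 library.

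For the pairing check, each SCC library was correlated with the RCC library of its own number after group means were removed, which gave -0.01, 0.02 and -0.08. The numbers were treated as unpaired. With the replicate block 3 members were called lower and 1 higher (ZNF358), and over all genes 350 higher and 106 lower.

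Over all genes, against 268 higher and 60 lower calls, DESeq2 gave 474 and 182, every gene with a count 995 and 315, the GC offset 507 and 234, the GC offset with the block 605 and 425, and the GC offset without SCC replicate 1 gave 652 and 403. With log2(FPKM + 1) there were 130 and 36, with log2(FPKM + 0.1) 117 and 34, and with log2(FPKM + 1) without a filter 48 and 1. Leaving out 1 library gave 99 to 642 higher and 8 to 343 lower. Higher genes made up 81.8% of calls with RLE and 78.3% with upper-quartile scaling, and 68.4% with the GC offset.

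Signs turned for TRIM28 with the GC offset (-0.0764), with the offset plus the block (-0.0763) and with the offset when SCC replicate 1 was left out (-0.0809). They turned for ZNF787 with the GC offset (-0.0416), with the offset plus the block (-0.0450) and with the offset when SCC replicate 1 was left out (-0.138), and leaving out 1 library gave -0.0253 (SCC replicate 1) to 0.414 (SCC replicate 2).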
